A study of Mus musculus with 10 samples.

Results

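Interscapular brown adipose tissue (iBAT) was examined for 10 genes that mark lipid-associated macrophages, the lipid-laden macrophages that carry the receptor TREM2: Gpnmb, Trem2, Tyrobp, Lgals3, Cd9, Cd63, Spp1, Itgax, Cd68 and Atp6v0d2. The genes were taken by symbol, and all 10 were found among the 15075 genes of the table and among the 11244 that passed the filter on low values, which asked that the mean of either group reach 10 (in normalized reads per kilobase of counted exon). They were chosen with their values in these libraries known, so every value of theirs is a description and carries no test. The study profiled polyadenylated RNA from iBAT of C57BL/6 mice aged 20 weeks and kept at room temperature. The 5 Control mice carried floxed Crls1 (Crls1 f/f) without Cre and are labelled wild-type, and the 5 AdCKO mice carried the same floxed gene with Cre. Crls1 encodes cardiolipin synthase, which makes the signature phospholipid of the inner mitochondrial membrane. Cre was driven by Adipoq regulatory sequences, which are active in adipocytes, brown and white, so the deletion was not aimed at macrophages. Crls1 mRNA lay between 813 and 1291 normalized reads per kilobase in Control and between 193 and 249 in AdCKO.

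Macrophages of adipose tissue take up dying adipocytes and the lipid that they release. In obese fat a subset gathers around such cells, and TREM2, a surface receptor for lipids and lipoproteins, is needed for the subset to form. TREM2 has no signalling tail of its own and signals through the adaptor TYROBP (DAP12), whose phosphorylated motifs recruit the kinase SYK. The same cells make lysosomal proteins, lectins and lipid-handling enzymes. Each library is a whole piece of tissue, so more cells of a type and more RNA per cell cannot be told apart.

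Members differed in where they lie and in what the DNA before their start holds, which is given here since the members are otherwise grouped only by the cell state that they mark. On mouse build mm9, the counted transcripts run from chr17:48485726-48491601 for Trem2, chr7:31198807-31202598 for Tyrobp, chr6:48986517-49008181 for Gpnmb, chr14:47993535-48005842 for Lgals3, chr10:128345975-128349874 for Cd63, chr5:104864130-104870072 for Spp1 and chr7:135273082-135294171 for Itgax, all on the plus strand. Cd9 at chr6:125410284-125444773, Cd68 at chr11:69477715-69479672 and Atp6v0d2 at chr4:19803985-19849713 lie on the minus strand. The annotated transcript nearest to the counted one had between 5 exons (Trem2 and Tyrobp) and 30 (Itgax). Cd9 overlaps a long noncoding RNA on the opposite strand, Gm16749, and reads of this pair cannot be told apart if the counting did not use strand.

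The 250 bases before the start of 9 members were searched on both strands for 5 short motifs, none of which contains another: the PU.1 core GAGGAAG, the AP-1 element TGACTCA or TGAGTCA, the E-box CACGTG and the M-box TCATGTG that MiT-TFE factors can bind, and the C/EBP-ATF element TGATGCAA. PU.1 is the lineage factor of macrophages and AP-1 is a dimer of FOS and JUN proteins. The PU.1 core was present before Trem2 and Spp1, 2 of these 9 members, and before 11.3% of the 15074 genes searched. An AP-1 element was present before Itgax, Cd68 and Atp6v0d2, 3 of the 9, and before 3.33% of the genes searched. The E-box, the M-box and the C/EBP-ATF element, held by 7.87%, 1.95% and 0.478% of the genes searched, had no match before any of the 9. The windows of Trem2, Cd68 and Atp6v0d2, each with a match, are printed 5′ to 3′ on the gene's own strand with the matched letters in capitals. Those of Gpnmb and Cd63, whose proteins also lie in lysosomes, held no match to any of the motifs. A match is a run of letters, and binding was not measured.
Trem2: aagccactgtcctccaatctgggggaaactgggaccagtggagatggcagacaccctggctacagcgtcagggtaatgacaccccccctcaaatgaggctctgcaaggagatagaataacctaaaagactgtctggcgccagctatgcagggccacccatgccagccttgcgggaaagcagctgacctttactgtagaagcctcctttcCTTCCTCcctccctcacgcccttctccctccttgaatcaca
Cd68: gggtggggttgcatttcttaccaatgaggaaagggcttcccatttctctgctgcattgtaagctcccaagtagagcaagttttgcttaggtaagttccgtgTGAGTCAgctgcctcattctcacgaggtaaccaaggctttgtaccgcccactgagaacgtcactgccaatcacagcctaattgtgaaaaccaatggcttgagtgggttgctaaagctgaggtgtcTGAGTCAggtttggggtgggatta
Atp6v0d2: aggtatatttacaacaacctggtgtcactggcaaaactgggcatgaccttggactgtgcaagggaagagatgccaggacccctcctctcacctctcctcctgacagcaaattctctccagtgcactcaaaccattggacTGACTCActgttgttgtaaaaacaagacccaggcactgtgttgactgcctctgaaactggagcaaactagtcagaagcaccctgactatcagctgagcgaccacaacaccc
These windows are chr17:48485476-48485725 for Trem2, chr11:69479673-69479922 for Cd68 and chr4:19849714-19849963 for Atp6v0d2. The PU.1 core stood 41 to 35 bases before the start of Trem2, on the strand opposite to the gene. Cd68 held a pair of AP-1 elements, at 149 to 143 and 24 to 18 bases, and Atp6v0d2 held its match at 111 to 105 bases. The window of Atp6v0d2 had 1 CG dinucleotide, those of Trem2 and Cd68 had 4 each, and the median over the genes searched was 14. The windows not printed ran from 2 for Cd63 to 16 for Cd9, with 13 for Lgals3.

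All 10 members were higher in each AdCKO library than in each Control library. The same complete separation was seen for 24.5% of the genes tested, and since the members were picked for this contrast nothing is read from the count. The log2 difference of mean log2(value + 1), AdCKO minus Control, ran from 2.19 for Cd9 to 6.41 for Gpnmb with a median of 3.36, beside a median of -0.01 over all tested genes. Gpnmb and Lgals3 held the first and second place among the 11244 tested genes by this difference, with Mmp12, which was not a member, also at 5.85. These places depend on the pseudocount. With 0.1 in place of 1, Mmp12 (6.04) stood above Lgals3 (5.88), and with 10, Lgals3 (5.61) stood above Gpnmb (5.45). Values below are normalized reads per kilobase, in the order of replicates 1 to 5, with the SD over 5 mice.

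**Figure D1:**
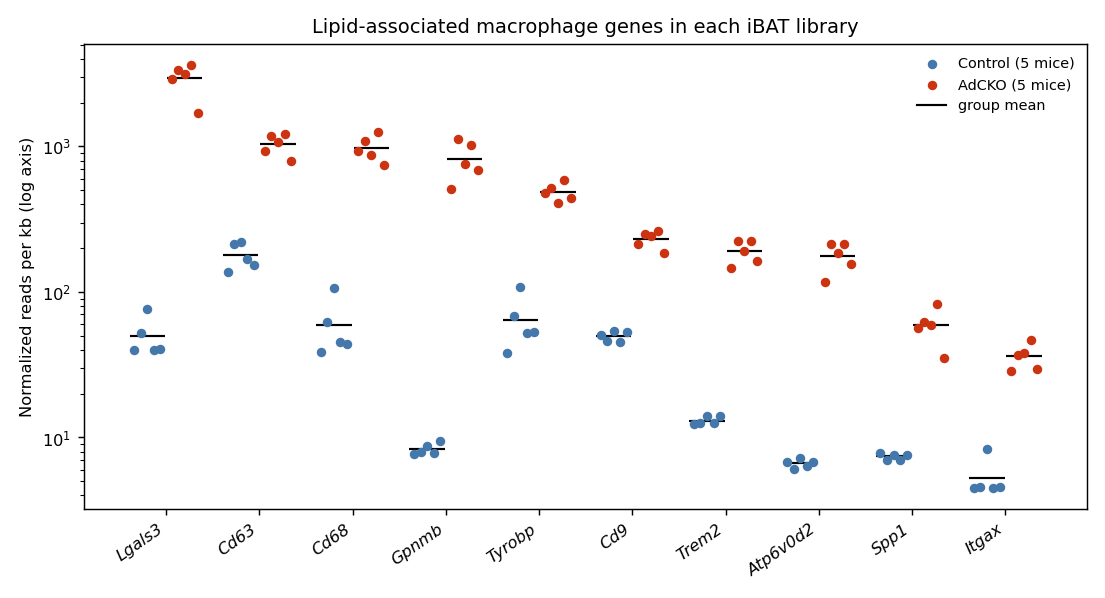
Normalized reads per kilobase (log axis) of the 10 genes in each Control (blue) and AdCKO (red) iBAT library, with the group mean as a black line; genes are ordered by their AdCKO mean. No red point lies as low as a blue point of the same gene, and Lgals3 reaches from 1686 to 3618 in AdCKO.

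The receptor and its adaptor came first. Trem2 measured 12.3, 12.6, 13.9, 12.5 and 13.96 in Control and 146, 225, 192, 225 and 163 in AdCKO, with means of 13.1 ± 0.829 and 190.2 ± 35.8 and a log2 difference of 3.75. The Control libraries sat close together, and AdCKO replicates 2 and 4 were the highest. Tyrobp, the adaptor, was 38.0, 68.7, 109, 51.9 and 53.3 in Control and 479, 516, 407, 589 and 439.8 in AdCKO. The groups did not overlap, with means of 64.2 ± 27.2 and 486 ± 70.5 and a log2 difference of 2.98. Control replicate 3 was the highest of its group, and without it the Control mean of Tyrobp was 53.0 and the log2 difference 3.19. The adaptor serves many receptors besides TREM2 and had the higher level per kilobase of the pair in both groups. The ratio of Trem2 to Tyrobp within a library was 0.227 ± 0.0746 in Control and 0.393 ± 0.0634 in AdCKO, and the groups overlapped, with a highest Control ratio of 0.323 and a lowest AdCKO ratio of 0.306.

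GPNMB is a heavily glycosylated transmembrane protein of endolysosomes and the cell surface, and it is also made by melanocytes and osteoclasts. Gpnmb was 7.70, 7.89, 8.71, 7.82 and 9.40 in Control and 509.5, 1131, 757, 1029 and 689 in AdCKO, with means of 8.30 ± 0.731 and 823 ± 254 and a log2 difference of 6.41. The lowest AdCKO library was 54.2 times the highest Control library. AdCKO replicate 2 was the highest and replicate 1 the lowest. LGALS3 (galectin-3) is a lectin that binds galactose-containing glycans and gathers on damaged lysosomes. Lgals3 was 39.9, 52.1, 76.1, 39.8 and 40.8 in Control and 2887, 3332, 3152, 3618 and 1686 in AdCKO, with means of 49.7 ± 15.6 and 2935 ± 747 and a log2 difference of 5.85. AdCKO replicate 5 stood below the other 4, yet was 22.2 times the highest Control library.

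SPP1 (osteopontin) is a secreted phosphoprotein that binds integrins and CD44. Spp1 was 7.83, 7.06, 7.62, 7.02 and 7.63 in Control and 56.8, 62.2, 59.0, 82.9 and 35.3 in AdCKO, with means of 7.43 ± 0.369 and 59.3 ± 17.0 and a log2 difference of 2.79. AdCKO replicate 4 was the highest, at 2.35 times replicate 5, the largest ratio of highest to lowest AdCKO library of any member. By SD as a percentage of the AdCKO mean, Gpnmb was wider (30.8% against 28.6%). Spp1 stayed low among the members, ninth of 10 by level per kilobase in AdCKO.

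The tetraspanins CD9 and CD63 organize membrane domains and exosomes, CD63 mainly in late endosomes and lysosomes, and many cell types make both. Cd9 was 50.2, 45.8, 53.9, 45.3 and 52.9 in Control and 215, 252, 244, 260.4 and 184 in AdCKO, with means of 49.6 ± 3.95 and 231 ± 31.4. Its log2 difference of 2.19 was the smallest of the 10. Cd63 was 136, 214, 219, 169.7 and 154 in Control and 934, 1169.6, 1070.3, 1219 and 794 in AdCKO, with means of 179 ± 36.8 and 1037 ± 174 and a log2 difference of 2.54. Cd63 had the highest Control level of the 10 and its ranges did not overlap those of Tyrobp, the next. Another tetraspanin, Cd81, which was not a member, was 1356 ± 156 in Control and 1128 ± 128 in AdCKO and did not pass the test (log2 difference -0.26, adjusted p = 0.0351, and above 0 with libraries set to the same total, 0.22, or quantile normalized, 0.12). The ratio of Cd9 to Cd81 was 0.0371 ± 0.00600 in Control and 0.208 ± 0.0410 in AdCKO.

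ITGAX (CD11c) is an integrin alpha chain that pairs with ITGB2, is found on dendritic cells and marks macrophages of obese fat. Itgax was 4.52, 4.56, 8.30, 4.53 and 4.56 in Control and 28.8, 37.0, 38.2, 46.8 and 29.4 in AdCKO, with means of 5.30 ± 1.68 and 36.0 ± 7.39 and a log2 difference of 2.57. Control replicate 3 was the exception in a group of nearly equal values. Without it the Control mean was 4.54 with an SD of 0.0235, and the log2 difference was 2.72. Whether values this low agree so closely because of the processing was not tested. Itgam (CD11b), the alpha chain of most macrophages, rose from 5.93 ± 1.30 to 55.1 ± 15.7 (log2 difference 2.99, limma adjusted p = 9.43e-08), and the shared chain Itgb2 from 17.0 ± 10.5 to 211 ± 47.7 (3.68, adjusted p = 2.92e-07). The ratio of Itgax to Itgam was 0.883 ± 0.0967 in Control and 0.680 ± 0.150 in AdCKO, with overlap. The ratio of Itgax to Itgb2 was 0.344 ± 0.0711 and 0.173 ± 0.0312, lower in every AdCKO library than in any Control library.

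CD68 is a glycoprotein of macrophage lysosomes. Cd68 was 38.9, 62.6, 106, 45.5 and 43.8 in Control and 926, 1095, 871, 1249.8 and 741 in AdCKO, with means of 59.3 ± 27.5 and 977 ± 199 and a log2 difference of 4.09. Control replicate 3 was 2.72 times Control replicate 1, and without replicate 3 the log2 difference was 4.33. ATP6V0D2 is the d2 subunit of the vacuolar ATPase, the pump that acidifies lysosomes, and is known from osteoclasts and macrophages, whereas ATP6V0D1 is the widespread form. Atp6v0d2 was 6.75, 6.09, 7.23, 6.41 and 6.81 in Control and 116, 213, 187, 215 and 156 in AdCKO, with means of 6.66 ± 0.429 and 177 ± 41.8 and a log2 difference of 4.51. AdCKO replicates 2 and 4 were again the highest and replicate 1 the lowest. Atp6v0d1 was 337 ± 26.9 and 402 ± 29.6, a log2 difference of 0.25 with a limma adjusted p of 0.00941 that passed 0.01 only narrowly, and in 10 of the alternatives tried, leaving out any of 8 libraries among them, it did not pass. The ratio of Atp6v0d2 to Atp6v0d1 was 0.0199 ± 0.00238 in Control and 0.440 ± 0.0876 in AdCKO.

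By mean level per kilobase, the AdCKO order was Lgals3, Cd63, Cd68, Gpnmb, Tyrobp, Cd9, Trem2, Atp6v0d2, Spp1 and Itgax. The ranges of neighbours were separate at 3 steps, below Lgals3, Tyrobp and Atp6v0d2. In Control the order was Cd63, Tyrobp, Cd68, Lgals3, Cd9, Trem2, Gpnmb, Spp1, Atp6v0d2 and Itgax. Separate steps lay there below Cd63, Cd9 and Trem2. Gpnmb moved from rank 7 to rank 4 and Lgals3 from rank 4 to rank 1. The deposited values never reach 0, and the low Control levels are read with that limit. In normalized reads the Control SD was below the square root of the mean for 5 members (Gpnmb, Trem2, Cd9, Spp1 and Atp6v0d2), and since the reads behind these values are unknown, whether their Control SDs are too small was not tested. Itgax was not among them (SD 6.77 against 4.62), with the high replicate 3 included. Without replicate 3 its Control level was 4.54 ± 0.0235 per kilobase.

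The 10 genes tended to be high or low in the same mice. AdCKO replicate 4 was the highest of its group in 9 members, the exception being Gpnmb, and replicate 2 was second in 8. AdCKO replicate 5 was lowest in 5 members, replicate 1 in 4 and replicate 3 in 1 (Tyrobp). The mean over members, relative to the AdCKO group mean, was 0.33 log2 units in replicate 4 and -0.34 in replicate 5. Control replicate 3 was highest in 7 members and its mean stood 0.37 above its group. The summed level of 20 general macrophage markers was 2754 in Control replicate 3, against 885 to 1613 in the other Control mice, and its T cell sum was 75.8 against 35.3 to 38.8. In AdCKO the skeletal muscle sum was 5908, 21541 and 8325 in replicates 1, 2 and 4 and 268 and 275 in replicates 3 and 5, and T and B cell marker sums were highest in replicate 1 (254 and 112). The general macrophage sum was 11117, 12456, 9921, 12539.7 and 9315 in AdCKO replicates 1 to 5, highest in replicate 4 and lowest in replicate 5. The part of macrophage content, muscle and lymphoid tissue in the order of the AdCKO mice was not tested.

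**Figure D2:**
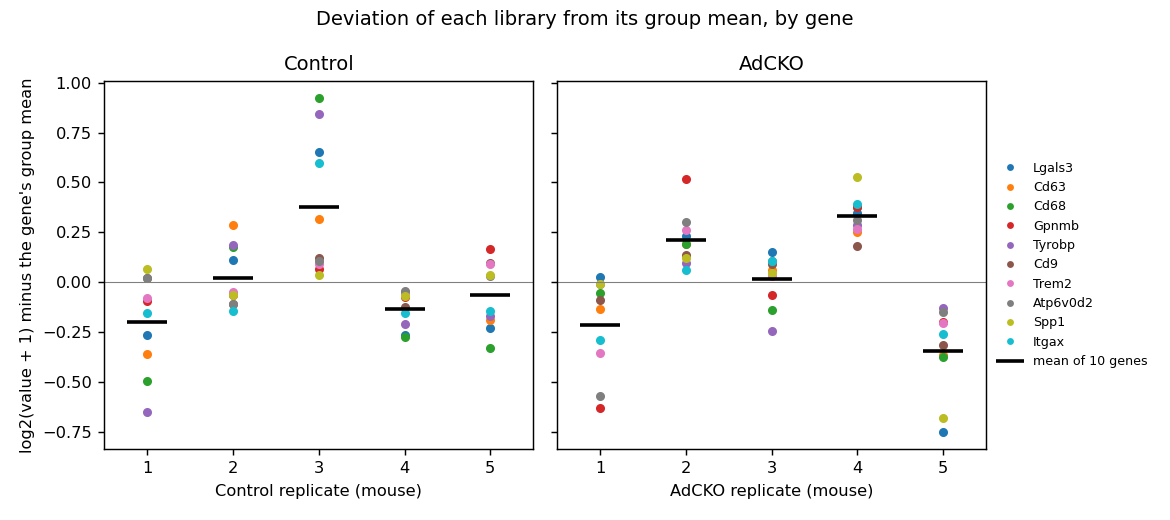
Deviation of log2(value + 1) from the gene's own group mean (vertical axis, log2 units) in each Control (left) and AdCKO (right) replicate, 1 coloured point per gene, with the mean of the 10 genes as a black bar. The bar lies at 0.37 in Control replicate 3, 0.33 in AdCKO replicate 4 and -0.34 in AdCKO replicate 5.

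General macrophage markers were also higher. Of 20 such genes, 19 were tested and 19 rose, with a median log2 difference of 2.57, where 25.6% of all tested genes were called higher and 28.0% lower. That split, 2879 genes higher and 3152 lower, depends on the scaling: with every library set to the same total it was 7013 and 1094, and after quantile normalization 2496 and 3588. Of the 19 markers, 19 rose with the same total and 17 after quantile normalization. Spi1, which encodes PU.1, rose from 25.0 ± 7.08 to 151 ± 35.6 (log2 difference 2.56, limma adjusted p = 2.57e-07). Cybb and Ncf1, of the phagocyte oxidase, rose by 2.90 and 2.46 (adjusted p = 3.03e-07 and 3.79e-07). Cx3cr1, the fractalkine receptor, fell under the filter at 5.36 ± 0.947 and 5.45 ± 1.24. The summed level of the 20 was 885 to 2754 in Control and 9315 to 12539.7 in AdCKO. Among 10 tested markers of resident macrophages, 6 rose and 4 were not called (median 1.12). With the same total 9 of 10 rose, after quantile normalization 6 of 9, and without Control replicate 3 8 of 9. Mrc1 went from 21.9 ± 11.1 to 101 ± 16.5, while Cd163 was 10.9 ± 4.56 and 8.98 ± 3.62. Cd163 was 18.8 in Control replicate 3 against 7.26 to 10.8 in the other Control mice.

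Members were then set against the mean log2(value + 1) of the 19 tested general macrophage markers in the same library, which was 2.39 higher in AdCKO, beside 3.77 for the mean of the members. Relative to these markers, 6 members were higher in every AdCKO library than in any Control library: Gpnmb by 4.03, Lgals3 by 3.47, Atp6v0d2 by 2.12, Cd68 by 1.71, Trem2 by 1.36 and Tyrobp by 0.59 log2 units. The other 4 overlapped between groups. Spp1 differed by 0.40, Itgax by 0.18, Cd63 by 0.15 and Cd9 by -0.20. How many of all tested genes separate on this relative scale was not computed. Since the members were picked for this contrast, nothing is read from the count of 6. In pairs chosen after the values were seen, the ratio of Gpnmb to Trem2 was 0.635 ± 0.0212 in Control and 4.25 ± 0.589 in AdCKO, and that of Atp6v0d2 to Trem2 was 0.510 ± 0.0263 and 0.926 ± 0.0751. Gpnmb, Trem2 and Atp6v0d2 had low Control means (8.30, 13.1 and 6.66) and Control SDs below the square root of the mean in normalized reads. How far this shaped the ratios, and the differences of these genes from the markers, was not tested.

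**Figure D3:**
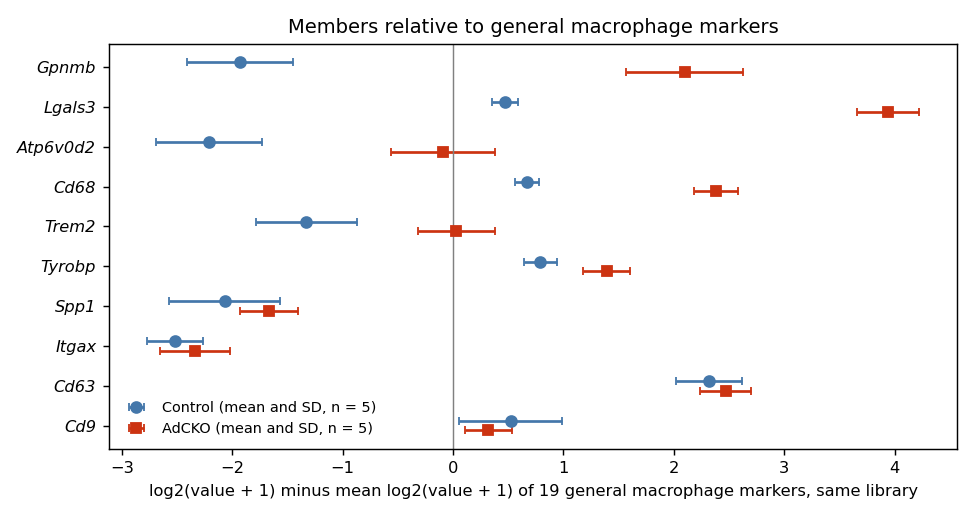
Level of each gene minus the mean of 19 general macrophage markers of the same library, in log2(value + 1) units (horizontal axis), as mean and SD over 5 Control (circles) and 5 AdCKO (squares) mice. Gpnmb moved from -1.93 to 2.10 and Lgals3 from 0.47 to 3.94, while the means of Cd9, Cd63, Itgax and Spp1 lay within 0.40 of each other between groups.

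Genes that work with TREM2 and TYROBP were counted from a list of 29, of which 26 were in the table and 22 were tested. 20 rose, none fell and 2 were not called, with a median log2 difference of 1.60. Syk, the kinase that TYROBP recruits, rose from 10.6 ± 3.57 to 66.6 ± 10.4 (2.58, limma adjusted p = 1.4e-07, named after its value was seen). Cd300lb, another receptor that can use TYROBP, rose from 6.66 ± 0.478 to 50.5 ± 10.7 (2.73, adjusted p = 1.63e-08). Ms4a7, a membrane protein of macrophages that also counts among the general markers, rose from 17.1 ± 4.52 to 128 ± 12.9 (2.86, adjusted p = 2.57e-08). The signalling proteins Vav3 and Lat2 rose by 1.80 and 2.25 (adjusted p = 9.93e-08 and 1.37e-07). Cd300lb and Vav3 (Control 7.78 ± 0.491) had low and close Control values, whose part in the adjusted p was not tested.

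The 2 that were not called were Hcst and Apoe. Hcst (DAP10), the other adaptor of TREM2, was 9.41 ± 1.01 in Control and 12.3 ± 3.99 in AdCKO (log2 difference 0.31, adjusted p = 0.116), the highest value being that of AdCKO replicate 1, 19.3. With the same total in every library Hcst was called higher (0.75, adjusted p = 0.00188), and after quantile normalization its difference was -0.07. The ratio of Tyrobp to Hcst was 6.72 ± 2.27 in Control and 41.9 ± 10.7 in AdCKO. Apoe, a lipoprotein that TREM2 binds, was 4543 ± 712 and 6757 ± 1678 (0.55, adjusted p = 0.0112). It was called higher with the same total (1.03, adjusted p = 0.000105), where 22 of the 22 tested genes rose, and after quantile normalization (1.39, adjusted p = 3.82e-05).

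Of 35 other genes linked to lipid-associated macrophages, 33 were tested: 22 rose, 1 fell and 10 were not called, with a median of 1.42. The count that rose was 30 with the same total and 29 after quantile normalization. Mmp12, the macrophage elastase, rose from 6.08 ± 0.531 to 430 ± 158 (5.85, limma adjusted p = 2.16e-09). Its Control values were low and close together, and how far this shaped the adjusted p was not tested. Lhfpl2 rose by 4.00, Nceh1, which hydrolyses cholesteryl ester, by 3.41, and Capg, an actin-capping protein, by 3.55 (adjusted p = 1.25e-10, 2.89e-10 and 3.59e-09). Acp5, tartrate-resistant acid phosphatase of osteoclasts and macrophages, fell by 0.89 (from 1388 ± 104 to 754 ± 127, adjusted p = 2.69e-05). The 10 without a call were Fabp5, Lipa, Cd36, Ctsb, Ctsd, Ctsz, Lgals1, Anxa5, Fth1 and Abca1.

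**Figure D4:**
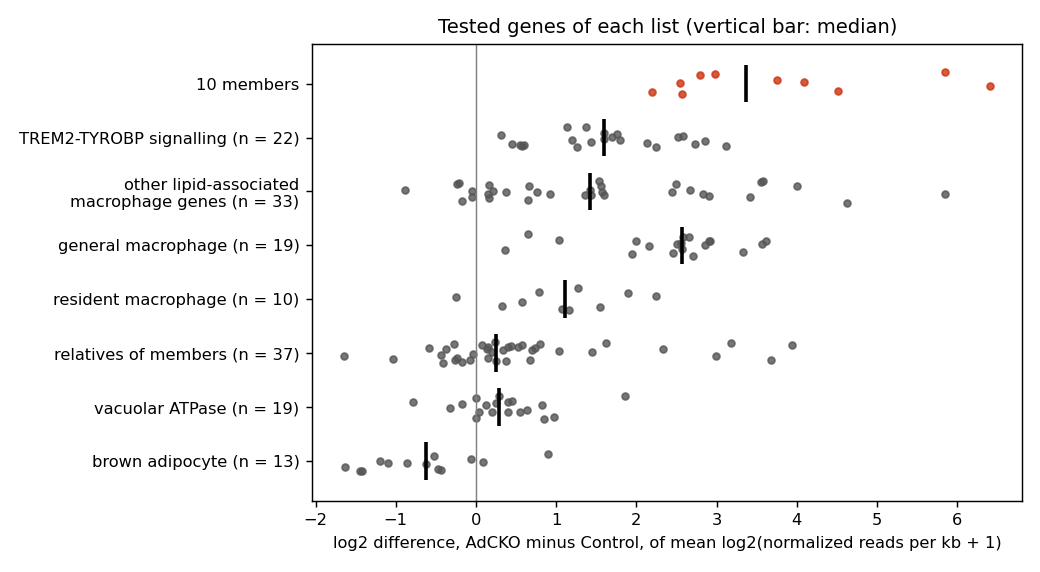
Log2 difference, AdCKO minus Control, of mean log2(normalized reads per kilobase + 1) for the tested genes of each list (points; red for the 10 members), with the list median as a vertical bar. Medians ran from 3.36 for the members through 2.57 for general macrophage markers to -0.62 for brown adipocyte genes.

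The remaining subunits of the vacuolar ATPase differed less than Atp6v0d2. Of 19 tested subunits and accessory proteins, 10 rose, 1 fell and 8 were not called, with a median of 0.29. Over all tested genes, 25.6% were called higher and 28.0% lower. When every library was set to the same total, which moved the median of all genes to 0.47, 16 rose and 1 fell, and after quantile normalization 14 rose and 1 fell. Tcirg1, the a3 subunit of lysosomes and osteoclasts, rose from 62.8 ± 6.97 to 232 ± 33.2 (1.86, limma adjusted p = 5.86e-08). Atp6v0a1, Atp6ap1 and Atp6ap2 rose by 0.82, 0.63 and 0.97 (adjusted p = 6.76e-06, 1.48e-05 and 1.94e-05), and Atp6v0a2 fell by 0.78 (adjusted p = 1.26e-05). The MiT-TFE factors drive lysosomal genes, and Mitf and Tfe3 also Gpnmb. Tfeb rose from 83.4 ± 4.25 to 120 ± 10.9 (0.51, adjusted p = 6.9e-05) and Mitf from 15.7 ± 2.02 to 23.4 ± 4.23 (0.53, adjusted p = 0.00303, but 0.20 and 0.154 after quantile normalization). Tfe3 was 135 ± 12.5 and 140 ± 4.92 (0.06, adjusted p = 0.47, but 0.54 and 1.39e-05 with the same total), and Tfec, at 3.40 ± 0.384 and 5.70 ± 0.991, was not tested.

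**Figure D5:**
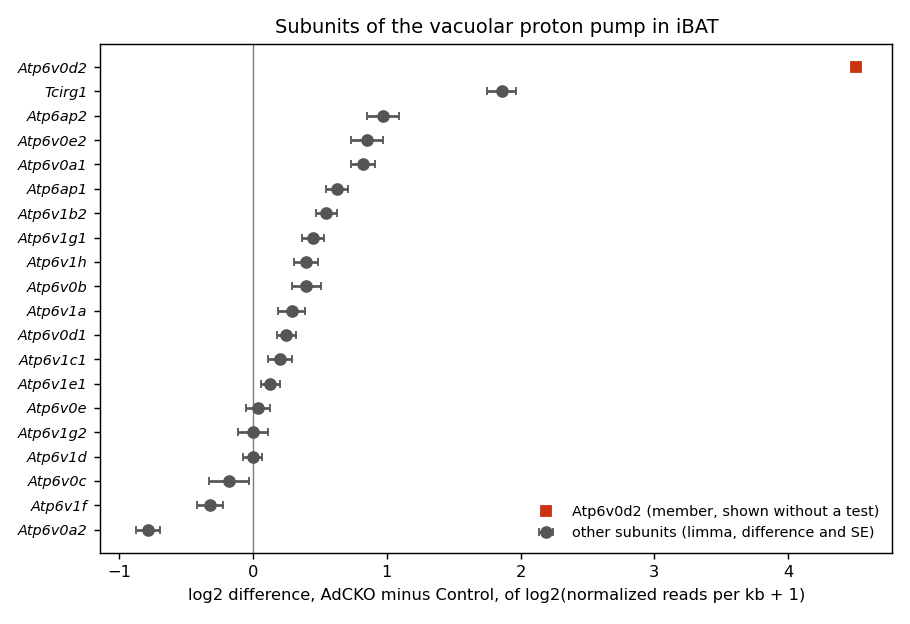
Log2 difference, AdCKO minus Control, of log2(normalized reads per kilobase + 1) for 19 subunits and accessory proteins of the vacuolar ATPase (grey, with the limma SE) and for Atp6v0d2 (red square, shown without a test). Atp6v0d2 lies at 4.51, Tcirg1 next at 1.86 and Atp6v0a2 last at -0.78.

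Relatives of the members, meaning other tetraspanins, galectins, integrins, lysosomal membrane proteins and the osteopontin receptor Cd44, were mixed. Of 37 tested, 16 rose, 3 fell and 18 were not called, with a median of 0.25, and 26 rose with the same total in every library. Cd44 rose from 8.72 ± 5.06 to 139 ± 29.6 (3.94, limma adjusted p = 1.32e-07) and the fibronectin receptor chain Itga5 from 16.4 ± 1.91 to 52.8 ± 8.96 (1.62, adjusted p = 3.84e-07). The adipocyte galectin Lgals12 fell by 1.03, Tspan18 by 1.64 and Tspan3 by 0.58 (adjusted p = 4.39e-07, 6.51e-07 and 3.24e-06). Tspan3 was not called with the same total (-0.10, adjusted p = 0.179).

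Some members are made by other cells, and markers of those cells were read beside them. Of 3 melanocyte markers in the table, Mlana rose from 14.9 ± 0.404 to 42.0 ± 11.2 and Sox10 from 10.03 ± 1.57 to 22.2 ± 3.72, and Dct was 1.54 ± 0.128 and 1.72 ± 0.0986. Schwann cell markers, Sox10 among them, rose in 4 of 4. Osteoclast genes numbered 6 in the table, of which 2 were tested and 1 rose (none of 1 tested after quantile normalization or without AdCKO replicate 1), and their sum was 63.4 to 72.1 in Control and 57.2 to 81.1 in AdCKO. Of 8 dendritic cell genes 3 were tested and 2 rose (none rose and 1 fell after quantile normalization), with a sum of 53.1 to 74.7 in Control and 65.7 to 109 in AdCKO. No neutrophil gene reached the filter. T cell genes rose in 1 of 5 tested (2 with the same total, 0 after quantile normalization) and B cell genes in 0 of 2. Skeletal muscle genes rose in 1 of 8, in 2 with the same total and in 0 without AdCKO replicate 1 or without Control replicate 3. Endothelial genes rose in 1 of 5, and in 4 with the same total. The 6 fibroblast markers all rose, with a median of 2.39, while of 13 brown adipocyte genes 8 fell and none rose (median -0.62), a count that became 5 lower and 2 higher with the same total and 3 lower and 1 higher after quantile normalization. Ucp1, the uncoupling protein of brown fat, was 36912 ± 8713 in Control and 14069 ± 4478 in AdCKO. Which cells carried the members' mRNA was not tested.

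Genes with the most similar profile were sought among the 11244 tested genes by the root mean square difference of log2(value + 1), after subtracting each gene's Control mean, over the 10 libraries. The nearest gene was never another member. Mmp12 was nearest to both Gpnmb and Lgals3 (0.44), Atf3 to Atp6v0d2 (0.38), Psat1 to Trem2 (0.15), Cotl1 to Tyrobp (0.15) and Cd44 to Cd68 (0.18). Cd200r1 was nearest to Cd9 (0.10), Serpinf1 to Cd63 (0.12), Cd300lb to Spp1 (0.13) and Ncf1 to Itgax (0.17). To the median profile of the 10 the nearest were Tnfaip2 (0.16), Mthfd2 (0.16), Col1a1 (0.17), Anpep (0.20) and Prrx1 (0.20), against a median of 2.41 over all genes. The measure mostly reflects the size of the group difference, and the nearest genes include collagen and folate enzyme genes beside those of macrophages.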

How the data were processed

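Per the labels and the study's methods, polyadenylated RNA from iBAT of 5 Control and 5 AdCKO mice was sequenced. STAR was the authors' aligner (build mm9), HOMER and iRNA-seq gave their exon counts, and DESeq2 their normalization (versions not given in the sources used here). The deposited values are a signal, normalized reads per kilobase of counted exon. They never reach 0 (smallest 0.0532), and between 23.0% and 24.5% of low values per library lay within 0.1 of a whole-read step at the best scale, where 20.0% would by chance, so no reads were recovered, the sequencing depth is unknown, and intervals for counting error are not given. Normalized reads summed to 7615403 to 8171138 per Control library and 5419800 to 5843024 per AdCKO library. The table's columns of log2 fold change and adjusted p, and the lists of genes up and down, hold the authors' own comparison and were not used.

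Genes with a group mean of at least 10 were tested on log2(value + 1) with limma 3.58.1 in R 4.3.3 (lmFit, eBayes with trend, two-sided) over all 10 libraries, with Benjamini-Hochberg adjustment over 11244 genes and calls at an adjusted p under 0.01. This stands in place of a count model, since counts were not recovered. At this threshold 2879 genes were higher and 3152 lower. In simulated data for AdCKO against Control (10613 genes), 88 of 98 genes changed by a log2 of 1 and 98 of 100 changed by 2 were called, and 0 unchanged genes. Fold changes on this scale understate those of low genes. Control SDs were set against the square root of the mean for members only. List genes with low Control values, such as Cd300lb, Vav3, Mmp12 and Lhfpl2, had close Control values like some members. How far this shaped their adjusted p was not tested. Members and lists were chosen with earlier results of these data known, so list counts are not independent support. Named are all members, at most 4 list genes that rose and 3 that fell with the smallest p per main list, fixed structural pairs, the MiT-TFE factors and the nearest profiles. Other names were chosen after their values were seen. Labels give each library as a separate replicate, and nothing says more of the mice. Sequences were read from the mm9 genome (NCBIM37) with GENCODE vM1 annotation, and the promoter of Tyrobp is not reported here. Alternatives were other pseudocounts, filters, thresholds and normalizations, limma without trend, a replicate block and leaving out each library. Figures were drawn with matplotlib 3.10.9.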

Additional observations from a re-analysis of the deposited data

Results flagged for a closer look

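In groups of 5, a library was singled out when its gap to the nearest of the others exceeded 0.71 of the group's range (Dixon's 95% critical value). Of 102 groups examined 10 met this, and chance alone flags about 1 in 20 groups. Control replicate 3 accounted for 5: Itgax was 8.30 there against 4.52 to 4.56 in the other Control mice, Cd44 17.6 against 5.69 to 8.08, Itgb2 35.6 against 10.5 to 13.1, Ncf1 17.4 against 8.38 to 10.5 and Tfec 4.06 against 3.07 to 3.36. The general macrophage sum was also highest in that library, at 2754, and its part in these values was not tested. AdCKO replicate 1 accounted for 2: its Hcst of 19.3 stood above 10.1 to 11.6 and its ratio of Atp6v0d2 to Trem2 of 0.793 below 0.949 to 0.974. The library also had the highest T cell and B cell sums (254 and 112). Singly, the ratio of Gpnmb to Trem2 was 0.673 in Control replicate 5 against 0.624 to 0.627, Atp6v0d1 was 384 in Control replicate 2 against 314 to 333, and Lgals12 was 244 in AdCKO replicate 3 against 292 to 309. The flags of Itgax, Tfec and the ratio of Gpnmb to Trem2 rest on low Control values. Whether the close agreement of the other Control libraries comes from the processing was not tested.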

How the results depend on the processing

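No member and none of the 5 main lists changed direction under the alternatives run. With the same total in every library, which moved the median of all tested genes from -0.01 to 0.47, the vacuolar ATPase genes called higher went from 10 to 16, the relatives from 16 to 26 and the median of the members from 3.36 to 3.83. With a pseudocount of 10 that median was 2.95. Quantile normalization gave 3.32. Leaving out each library in turn gave 20 to 21 signalling genes, 22 other lipid-associated macrophage genes, 8 to 11 vacuolar ATPase genes, 14 to 17 relatives, 18 to 19 general macrophage markers and member medians of 3.27 to 3.48. The labels number replicates 1 to 5 in both groups and do not say whether the numbers pair the mice. Same-numbered libraries did not deviate together (correlations of deviations -0.0686, 0.0872, -0.171, -0.268 and 0.098). A single correlation over all genes per number cannot exclude pairing, so none is concluded either way. With the replicate block the counts were 20, 22, 9, 16 and 18, against 20, 22, 10, 16 and 19 without it. Of 540 recomputed values of 30 named list genes, 15 crossed the threshold, 10 of them for Atp6v0d1. Of 140 recomputed member values, 16 moved by over 1 SD and 0 reversed. Depth is unknown, which limits most what can be said of members below 10 in Control (Gpnmb, Spp1, Itgax and Atp6v0d2).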
